A study of Mus musculus with 10 samples.

Results

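Autophagy is the route by which cells enclose cytoplasm in a double membrane, the autophagosome, and deliver it to lysosomes for breakdown. The genes described here encode its initiation kinases, its lipid kinase, the proteins that supply membrane, the conjugation enzymes, the LC3 and GABARAP proteins that are attached to the membrane, the receptors that carry cargo to it, and the transcription factor TFEB. They were chosen by name, as a list of 37 genes, with earlier results of these data known. Of these, 36 have a probe set that is assigned to their symbol alone, all 36 passed the filter on low values, and they are 36 of 17204 genes tested; Optn has no such probe set in the annotation used and was not analysed here. Where a gene has several such probe sets, the brightest on average over all 10 arrays stands for it.

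The arrays profile B cells sorted from mouse spleen, with 1 sample per Affymetrix mouse genome array. Naive B cells came from unimmunized Balb/c mice (n = 4). Germinal centre (GC) B cells came from 2 lines on the Balb/c background, called B1-8 (VH186.2-Tg JH KO, n = 3) and V23 (V23-Tg JH KO, n = 3). Each of these lines carries a transgenic immunoglobulin heavy chain allele together with a targeted deletion of the endogenous JH locus. Their mice received 50 µg of the hapten-carrier conjugate NP-CGG in alum by intraperitoneal injection, and λ+ PNA+ B220+ cells were sorted 14 days later. In earlier work on these transgenes, λ light chains combine with either heavy chain to bind NP, with higher affinity in B1-8 than in V23. The naive mice carried neither the transgene nor the JH deletion and were not immunized, so in every comparison against them genotype, immunization and sort cannot be told apart. The labels give no age and leave unsaid whether replicates came from different mice. If they did not, a p-value covers the spread among these samples alone, which may be technical.

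In the textbook order of events, the ULK kinase complex starts the process, the class III phosphatidylinositol 3-kinase complex marks the membrane with a lipid, ATG9 and ATG2 proteins bring further lipid, and WIPI proteins read the mark. A pair of ubiquitin-like reactions then attaches LC3 and GABARAP proteins to phosphatidylethanolamine, which is the form of LC3 that is commonly measured as a sign of autophagy. In B lymphocytes autophagy genes are known for their part in the survival of memory B cells and plasma cells, and a conjugation of LC3 to other membranes has been described in GC B cells. Messenger RNA levels, which are all that is given here, do not measure the flow of material through the pathway.

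The values are log2 probe set signals, so a difference of 1 is a change of 2-fold, and levels of different probe sets are not compared with each other. Differences are followed by ± the standard error of the fit and levels by the value on each array. A gene is called where limma's adjusted p was under 0.05. Of the 4 B cell markers tested, Cd79a, Cd79b and Ms4a1 had group means from 13.28 to 14.35 over the 3 groups. The other, Pax5, averaged 10.56 in naive, 9.43 in B1-8 and 9.06 in V23 cells. For both lines together, Pax5 (−1.32 ± 0.21) and Cd79a (−0.40 ± 0.13) were called lower in GC cells, and no B cell marker was called higher. All 5 GC B cell markers tested were higher in GC cells and all 4 naive follicular markers were lower. All 8 neutrophil markers were also higher in GC samples. The mean of these 8 lay between 7.66 and 9.82 on the naive arrays, highest in naive replicate 4, and between 11.20 and 11.96 on the GC arrays, and no array had one of them below log2 4. Of the other marker lists, 2 of 5 plasma cell markers rose and 1 fell, and 4 of 7 macrophage, 1 of 6 T cell, 2 of 3 erythroid and 3 of 4 platelet markers fell with none higher. The 3′ minus 5′ difference of the Actb control probe sets, a measure of RNA quality, lay between 1.27 and 1.65 on naive and between 0.71 and 1.19 on GC arrays. The part of either in the results that follow was not tested. As in any bulk sample, fewer cells of a type and less RNA per cell cannot be told apart.

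Most autophagy genes whose level changed were lower in GC B cells than in naive B cells. In the mean of both GC lines against naive, 19 of 36 fell (52.8%) and 6 rose (16.7%), where 21% of all genes tested fell and 20.5% rose. The members' median difference was −0.30, beside 0.06 for all genes. The falls were led by the ATG4 protease gene Atg4c (4.42-fold lower), the lipid kinase regulator Pik3r4 (3.43-fold lower), the initiation kinase Ulk2 (2.69-fold lower) and the conjugation enzyme Atg10 (2.26-fold lower). Atg101, a subunit of the initiation complex, went against them at 4.32-fold higher. Sizes were otherwise modest: 4 members fell and 1 rose by at least 2-fold, where 8.17% of all genes fell and 7.02% rose by that much. The arrays of the GC and naive groups did not overlap for 17 members that were lower and 5 that were higher in GC cells, where 18.5% and 17% of all genes were so separated.

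Each line gave a similar count against the same 4 naive arrays. In GC B1-8, 16 members fell and 6 rose, where 17.3% of all genes fell and 16.4% rose. In GC V23, 18 fell and 5 rose, where 19.7% of all genes fell and 18.2% rose. By at least 2-fold, 4 fell and 1 rose in B1-8 (6.9% and 6.15% of all genes), and 5 fell and 1 rose in V23 (8.99% and 6.79%). In all, 15 members fell in each line and 5 rose in each, where 15.5% and 14.5% of all genes did; the comparisons share their naive arrays. Without B1-8 replicate 1 only 3 members rose in B1-8. With each array centred on its median, which moved the median difference of all genes in V23 from 0.06 to 0.19, 11 members fell and 8 rose in V23, beside 14.7% and 22.2% of all genes, so that the share of members that rose equals that of all genes. For both lines together 16 fell and 7 rose, beside 16.9% and 24.2%. Without naive replicate 4, the naive array with the highest neutrophil signal, 17 fell and 7 rose in both lines together, and without naive replicates 2 and 4 together 14 fell and 6 rose. Fits with arrays left out have less power for every gene, and the shares of all genes called in them are not given here. Their counts are therefore not read as a result about the members.

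**Figure D1:**
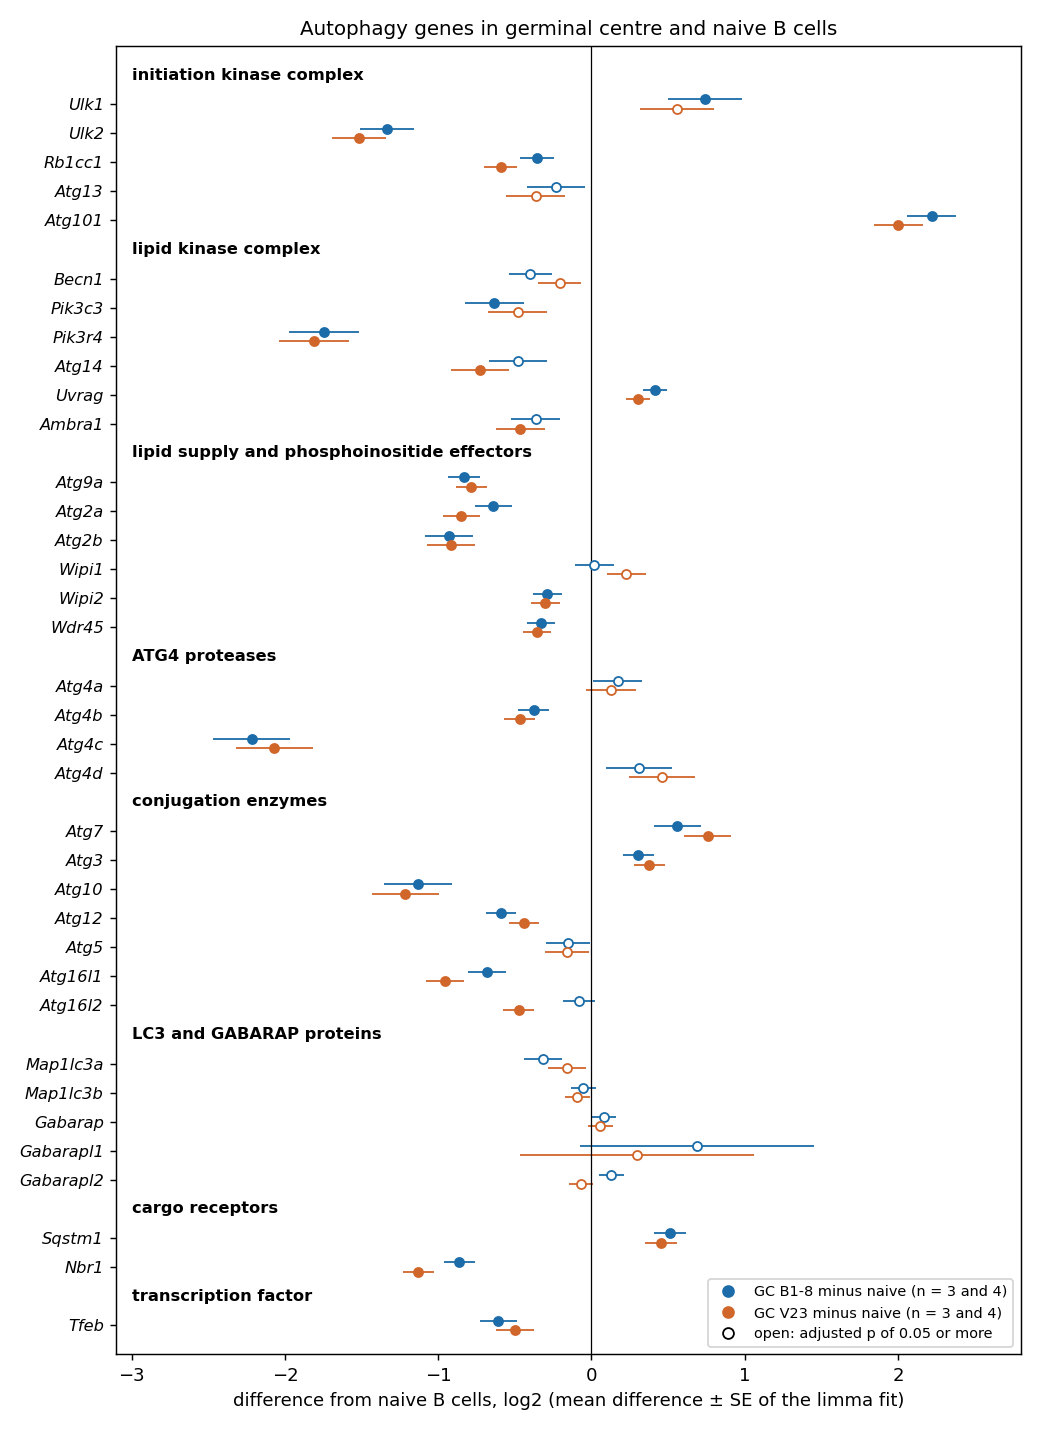
Difference from naive B cells (log2, x axis) of the 36 autophagy genes by role, for GC B1-8 (blue) and GC V23 (orange), each 3 arrays against the same 4 naive arrays; bars are standard errors and open circles have an adjusted p of 0.05 or more. Atg101 lies alone at about 2 on the right and Atg4c at about −2 on the left. The LC3 and GABARAP genes have open circles, in B1-8 from −0.32 for Map1lc3a to 0.69 for Gabarapl1. The bars of Gabarapl1 are wide, with a standard error of 0.76.

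The initiation complex, which holds a ULK kinase, the scaffold FIP200 (Rb1cc1), ATG13 and ATG101, split in direction: of 5 members 2 rose, 2 fell and 1 was not called. Counts by role, here and below, are for both lines together, where 21% of all genes fell and 20.5% rose. With so few genes in each role, they only describe the group and were not tested against those shares. Atg101 (1424212_at), which stabilizes ATG13 in the complex, read 7.10, 7.36, 7.41 and 7.50 on the naive arrays, 9.50, 9.60 and 9.59 in B1-8 and 9.44, 9.63 and 8.98 in V23. Every GC array lay more than 1 log2 unit above every naive array, and the rise was 2.11 ± 0.14 (adjusted p = 8.3e-06).

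The paralogous kinases moved apart. Ulk2 (1417847_at) read 10.50, 10.16, 10.39 and 10.11 in naive, 8.57, 9.23 and 9.06 in B1-8 and 8.59, 8.83 and 8.90 in V23 cells. The groups were separate and the difference was −1.43 ± 0.15 (adjusted p = 9.58e-05); its 3 other probe sets were lower too, at −0.83, −0.95 and −2.78. Ulk1 (1448370_at), the better known kinase of the pair, read 9.23, 9.34, 9.06 and 9.92 in naive, 10.37, 9.82 and 10.20 in B1-8 and 10.30, 9.72 and 9.81 in V23 cells. Naive replicate 4 lay among the GC arrays, so that the groups overlapped, and the difference of 0.65 ± 0.20 was called for both lines together (adjusted p = 0.0316) and in B1-8 (adjusted p = 0.0433) but not in V23 (adjusted p = 0.106). This call ended without naive replicate 1, 2 or 3, B1-8 replicate 1 or 3, or V23 replicate 1 (adjusted p from 0.0593 to 0.0927). Without naive replicate 4 Ulk1 was at 0.83 (adjusted p = 0.00722). Its other probe set, 1416504_at, was called higher at 0.96 ± 0.30 (adjusted p = 0.0314), although not in V23 alone (adjusted p = 0.184). The scaffold Rb1cc1 fell by 0.47 ± 0.09, from 9.68 ± 0.09 (SD, n = 4) to 9.32 ± 0.14 in B1-8 and 9.09 ± 0.15 in V23 (n = 3 each), although not with the mean of its probe sets (adjusted p = 0.158) or its most variable one (0.89). Atg13, which averaged 8.75 ± 0.21 in naive, 8.52 ± 0.14 in B1-8 and 8.38 ± 0.38 in V23 cells, was at −0.30 ± 0.16 (adjusted p = 0.18). It was called lower with the mean of its probe sets (−0.76, adjusted p = 0.000307), with its most variable one (−1.45, adjusted p = 0.012) and without V23 replicate 2 (adjusted p = 0.0482).

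The lipid kinase complex makes phosphatidylinositol 3-phosphate on the forming membrane. Of 6 genes 4 fell, 1 rose and 1 was not called, where 21% of all genes fell and 20.5% rose. Pik3r4 (1460352_s_at), which encodes the regulatory subunit VPS15, read 11.03, 10.88, 10.95 and 10.76 in naive, 9.05, 9.69 and 8.74 in B1-8 and 8.95, 9.44 and 8.89 in V23 cells. All GC arrays lay more than 1 log2 unit below the naive arrays, with a difference of −1.78 ± 0.19 (adjusted p = 0.000116). The catalytic subunit Pik3c3, or VPS34, went from 9.91 ± 0.23 in naive to 9.27 ± 0.25 in B1-8 and 9.43 ± 0.30 in V23 cells, a difference of −0.56 ± 0.16 (adjusted p = 0.0229). This call ended with quantile normalization (adjusted p = 0.0607), without naive replicate 1, 3 or 4 (0.0537 to 0.0642) and without naive replicates 2 and 4 together (0.0607).

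Becn1 (1455880_s_at) encodes Beclin 1, the subunit to which BCL2 binds. It read 12.43, 12.33, 12.40 and 12.46 in naive, 11.87, 11.94 and 12.21 in B1-8 and 11.88, 12.33 and 12.38 in V23 cells. The B1-8 arrays lay below all naive arrays. V23 replicate 2 was level with the lowest naive array and V23 replicate 3 lay among the naive arrays. The difference of −0.30 ± 0.12 was not called (adjusted p = 0.0736, 95% interval −0.58 to −0.03). It was called lower with quantile normalization (adjusted p = 0.013), with an intensity trend in the variance (0.0172) and without B1-8 replicate 3 (0.0469), but higher with the mean of its probe sets (0.32, adjusted p = 0.026). Of its other probe sets, 3 of 4 had the opposite sign, of which 1437006_x_at was called higher at 0.84 ± 0.12.

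The 2 alternative partners of Beclin 1 differed. Atg14, which directs the complex to autophagy, went from 8.61 ± 0.30 in naive to 8.13 ± 0.12 in B1-8 and 7.88 ± 0.28 in V23 cells, a difference of −0.60 ± 0.16 (adjusted p = 0.0158). This call ended with quantile normalization (0.157), when naive replicate 1 was left out (0.0504) and when naive replicates 2 and 4 were (0.0592). Uvrag, the partner found on endosomes, rose by 0.36 ± 0.07 (adjusted p = 0.00257), from 12.01 ± 0.04 in naive to 12.43 ± 0.03 in B1-8 and 12.32 ± 0.10 in V23 cells, with no overlap between arrays. Ambra1, a regulator of Beclin 1, went from 10.11 ± 0.09 in naive to 9.75 ± 0.23 in B1-8 and 9.65 ± 0.29 in V23 cells, a difference of −0.42 ± 0.13 (adjusted p = 0.0362). That call ended with quantile normalization (0.078) and median centring (0.128), without naive replicate 1, 2 or 3 or B1-8 replicate 2 or 3 (0.0664 to 0.0976) and without naive replicates 2 and 4 together (0.0939), while its 2 other probe sets were at −1.55 ± 0.24 and −1.56 ± 0.16.

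Of the 6 genes of membrane supply and of the phosphoinositide effectors, 5 fell and none rose, where 21% of all genes fell and 20.5% rose. Atg9a, a lipid scramblase of small vesicles, fell by 0.81 ± 0.09 (adjusted p = 0.000117), from between 9.22 and 9.42 on the naive arrays to between 8.32 and 8.65 in B1-8 and 8.48 and 8.64 in V23. The lipid transfer proteins Atg2a and Atg2b fell by 0.75 ± 0.10 and 0.92 ± 0.13 (adjusted p = 0.000419 and 0.000593). Atg2a went from 9.47 ± 0.18 in naive to 8.83 ± 0.15 in B1-8 and 8.62 ± 0.01 in V23 cells. Atg2b went from 9.40 ± 0.19 in naive to 8.47 ± 0.09 in B1-8 and 8.48 ± 0.29 in V23 cells. For Atg9a, Atg2a and Atg2b the lowest naive array was above the highest GC array. Wdr45, which encodes WIPI4, fell by 0.34 ± 0.08 (adjusted p = 0.007), from 10.26 ± 0.13 in naive to 9.94 ± 0.06 in B1-8 and 9.91 ± 0.01 in V23 cells. Wipi2, which recruits the conjugation complex, was at −0.29 ± 0.08 (adjusted p = 0.0161), from 9.97 ± 0.07 in naive to 9.69 ± 0.06 in B1-8 and 9.67 ± 0.14 in V23 cells. The Wipi2 call ended with quantile normalization (0.0777), median centring (0.14), when naive replicate 3 was left out (0.0518) and when naive replicates 2 and 4 were (0.0686). Wipi1 averaged 8.67 ± 0.14 in naive, 8.68 ± 0.12 in B1-8 and 8.89 ± 0.21 in V23 cells. It was at 0.12 ± 0.11 (adjusted p = 0.41; 95% interval −0.12 to 0.37), and was called higher with quantile normalization (0.38, adjusted p = 0.0171).

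The 4 ATG4 proteases trim LC3 and GABARAP proteins before conjugation and release them afterwards. Of their genes 2 fell and 2 were not called, where 21% of all genes fell and 20.5% rose. Atg4c (1434014_at) had the largest fall of all members. It read 8.54, 8.23, 8.53 and 8.43 in naive, 5.82, 6.24 and 6.59 in B1-8 and 5.80, 6.72 and 6.56 in V23 cells. The groups were separated by more than 1 log2 unit, and the difference was −2.14 ± 0.21 (adjusted p = 6.95e-05). Its other probe set, 1441440_at, averaged 5.95 in naive, 5.79 in B1-8 and 3.80 in V23 cells. That probe set was lower in V23 (−2.15 ± 0.42, adjusted p = 0.00413) but was not called in B1-8 (−0.16 ± 0.42, adjusted p = 0.812). Atg4b, the protease of broadest activity, fell by 0.42 ± 0.08 (adjusted p = 0.00352) in the probe set used, from 9.89 ± 0.04 in naive to 9.51 ± 0.09 in B1-8 and 9.42 ± 0.17 in V23 cells, but 1424102_at, another of its probe sets, was called higher at 0.34 ± 0.10; with the mean of its probe sets Atg4b was at −0.06 (adjusted p = 0.808), and its most variable one was at −0.10 (adjusted p = 0.886). Atg4a averaged 9.48 ± 0.17 in naive, 9.65 ± 0.05 in B1-8 and 9.61 ± 0.33 in V23 cells and was at 0.15 ± 0.14 (adjusted p = 0.431; 95% interval −0.16 to 0.46). Atg4d averaged 8.64 ± 0.38 in naive, 8.95 ± 0.27 in B1-8 and 9.10 ± 0.10 in V23 cells. It was at 0.38 ± 0.18 (adjusted p = 0.128) and was called higher in 6 alternatives, among them when naive replicate 4 was left out (0.52, adjusted p = 0.0488) and when naive replicates 2 and 4 were (0.71, adjusted p = 0.0152).

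**Figure D2:**
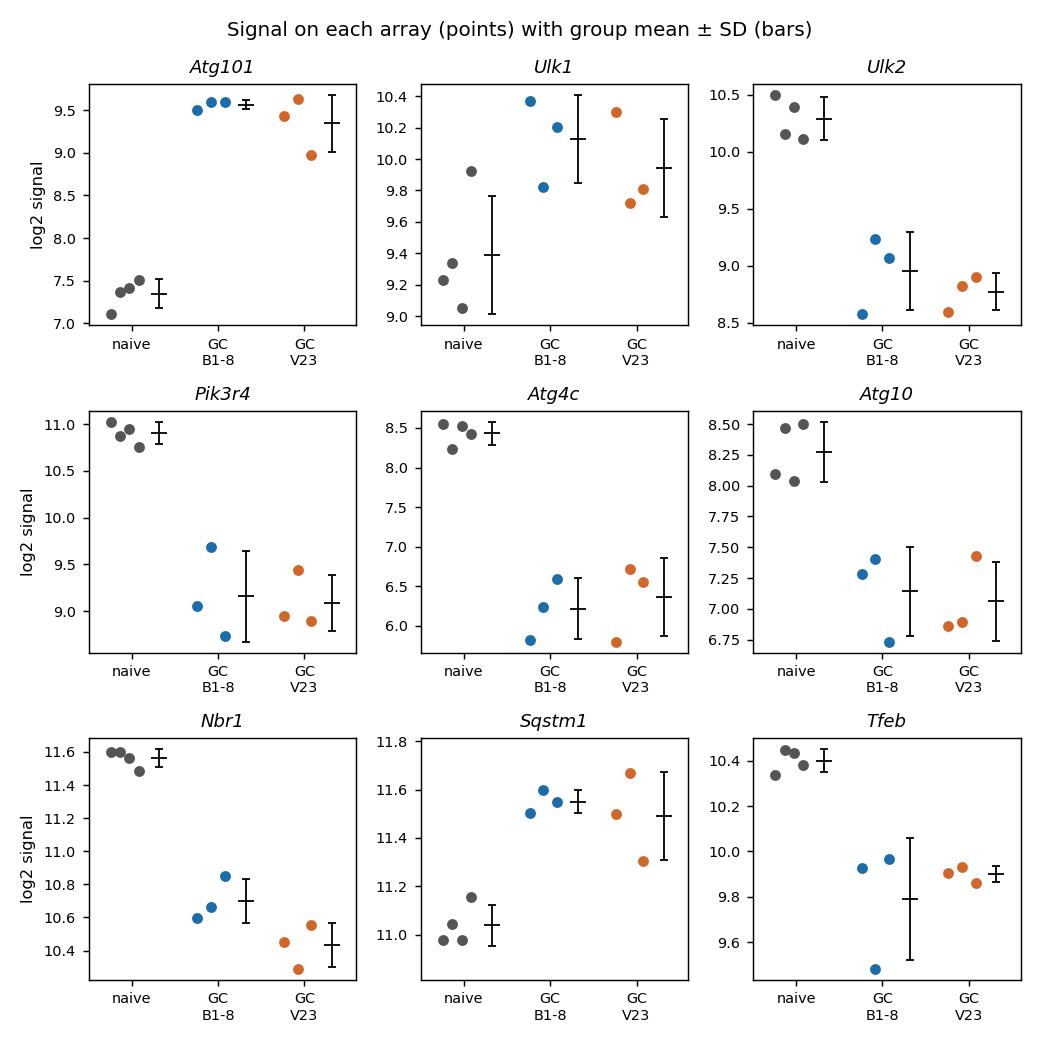
Log2 signal (y axis, a separate scale in each panel) of 9 autophagy genes on the 4 naive, 3 GC B1-8 and 3 GC V23 arrays; points are arrays and the bars beside them group means ± SD. GC and naive arrays are separate in 8 of the panels, and for Ulk1 naive replicate 4, at 9.92, lies among the GC arrays.

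The conjugation genes also split. ATG7 is the activating enzyme of both ubiquitin-like reactions, ATG3 the conjugating enzyme of LC3 and ATG10 that of ATG12; ATG12, joined to ATG5 and bound to ATG16L1, then places LC3 on the membrane. Of 7 genes 2 rose, 4 fell and 1 was not called, where 20.5% of all genes rose and 21% fell. Both enzymes that act directly on LC3 rose: Atg7 by 0.66 ± 0.13 (adjusted p = 0.00334), from 7.57 ± 0.25 in naive to 8.13 ± 0.14 in B1-8 and 8.32 ± 0.16 in V23 cells, and Atg3 by 0.34 ± 0.09 (adjusted p = 0.0119), from 11.75 ± 0.12 to 12.05 ± 0.13 and 12.13 ± 0.05. Both rested on the probe set used, and the most variable probe set of each averaged below log2 6 in every group. A further Atg7 probe set, 1428611_at, averaged 6.28 in naive, 6.09 in B1-8 and 6.33 in V23 cells and was at −0.07 ± 0.38. Atg7 was at 0.02 with the mean of its probe sets (adjusted p = 0.96) and at −0.24 in its most variable one, and the Atg3 call ended with the mean of its probe sets (adjusted p = 0.525), with its most variable one (0.864), with quantile normalization (0.0559) and without naive replicates 2 and 4 together (0.0666).

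In the ATG12 branch Atg10, Atg12 and Atg16l1 were lower in the probe sets used, while Atg5 was not called. Atg10 (1419081_at) read 8.09, 8.47, 8.04 and 8.50 in naive, 7.29, 7.41 and 6.73 in B1-8 and 6.86, 6.89 and 7.43 in V23 cells. The groups were separate and the difference was −1.17 ± 0.19 (adjusted p = 0.00101). Atg12 fell by 0.52 ± 0.08 (adjusted p = 0.00109), from 10.19 ± 0.12 in naive to 9.60 ± 0.11 in B1-8 and 9.75 ± 0.06 in V23 cells. Atg16l1 fell by 0.82 ± 0.11 (adjusted p = 0.000323), from 10.08 ± 0.06 in naive to 9.40 ± 0.24 in B1-8 and 9.13 ± 0.13 in V23 cells, and both were without overlap between arrays. These calls ended with the mean of the probe sets (adjusted p = 0.317 and 0.924), and the most variable probe sets were at −0.51 for Atg12 (adjusted p = 0.564) and 0.74 for Atg16l1, both of which averaged below log2 6 in every group. A brighter Atg12 probe set, 1451746_a_at, averaged 7.25 in naive, 7.58 in B1-8 and 7.22 in V23 cells. It was not called, at 0.15 ± 0.19 (adjusted p = 0.592). Atg5 averaged 9.80 ± 0.22 in naive, 9.65 ± 0.10 in B1-8 and 9.65 ± 0.18 in V23 cells, a difference of −0.15 ± 0.12 (adjusted p = 0.353; 95% interval −0.43 to 0.12), and was called higher with its most variable probe set (0.45, adjusted p = 0.0412). Atg16l2, the paralog of Atg16l1, was at −0.28 ± 0.09 (adjusted p = 0.0295), a call that ended in 12 of 21 alternatives, among them median centring (adjusted p = 0.22), quantile normalization (0.116) and leaving out naive replicate 1, 3 or 4, B1-8 replicate 2 or 3, or V23 replicate 1 or 2 (0.0504 to 0.0796).

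Promoter sequences are shown for the members with a CACGTG upstream, because TFEB and its relatives, which are known to drive lysosome and autophagy genes, bind this E-box core within a longer element. RefSeq (GRCm38.p6, the C57BL/6J reference, while the mice here were Balb/c) gave 36 start sites for 31 of the 37 genes. The 250 bases before each start were searched on both strands for CACGTG and for GTAAACA, a FOXO site. CACGTG was found in 3 of the 36 windows of the members, those of Atg7, Atg3 and Atg5, and in 6.02% of all 32851 windows of that length. GTAAACA was found in 0 of the 36 and in 3.17% of all windows, and the motifs overlapped each other in 4 of all windows. With so few member windows, these counts are not read as a result about the members. The windows are printed 5′ to 3′ on the plus strand with CACGTG in capitals. It begins 132 bases before the start of Atg7, 94 and 71 bases before that of Atg3 and 14 bases before that of Atg5. The windows lie at chr6:114670846-114671095 for Atg7, chr16:45158579-45158828 for Atg3 and chr10:44268089-44268338 for Atg5. A match is a description of the letters only.
Atg7: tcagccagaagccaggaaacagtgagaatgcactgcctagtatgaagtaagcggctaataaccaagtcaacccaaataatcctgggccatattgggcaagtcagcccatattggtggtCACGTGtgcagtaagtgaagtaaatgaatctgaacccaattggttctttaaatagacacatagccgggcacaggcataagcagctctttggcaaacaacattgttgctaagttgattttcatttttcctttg
Atg3: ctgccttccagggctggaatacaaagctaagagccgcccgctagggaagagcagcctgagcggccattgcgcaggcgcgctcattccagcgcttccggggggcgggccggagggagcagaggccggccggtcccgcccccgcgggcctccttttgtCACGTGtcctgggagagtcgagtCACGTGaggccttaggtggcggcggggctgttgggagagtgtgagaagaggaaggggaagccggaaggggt
Atg5: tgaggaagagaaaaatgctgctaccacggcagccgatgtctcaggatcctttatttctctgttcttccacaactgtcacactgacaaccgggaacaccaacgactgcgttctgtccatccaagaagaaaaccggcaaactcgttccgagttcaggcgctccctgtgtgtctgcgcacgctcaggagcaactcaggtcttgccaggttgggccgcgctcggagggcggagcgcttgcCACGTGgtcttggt

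The LC3 and GABARAP genes, whose products are the substrates of the conjugation, were not called in either line: 0 of 5 passed (limma, and 0 also at an unadjusted p under 0.05 for both lines against naive). Over all genes tested, 21% fell and 20.5% rose for both lines together, and 5 genes are few to set beside those shares. Map1lc3b (1415930_a_at), the LC3 most often measured, read 11.82, 11.83, 11.87 and 11.80 in naive, 11.74, 11.79 and 11.79 in B1-8 and 11.60, 11.84 and 11.78 in V23 cells. The arrays overlapped in V23 and the difference was −0.07 ± 0.07 (95% interval −0.23 to 0.09). Gabarap (1416937_at) read 12.53, 12.52, 12.58 and 12.55 in naive, 12.63, 12.64 and 12.60 in B1-8 and 12.72, 12.59 and 12.49 in V23 cells, a difference of 0.07 ± 0.07 (95% interval −0.09 to 0.23). Gabarapl2 (1423187_at) read 11.15, 11.19, 11.15 and 11.15 in naive, 11.23, 11.42 and 11.23 in B1-8 and 11.07, 11.12 and 11.09 in V23 cells. The B1-8 arrays lay just above and the V23 arrays just below the naive ones, with a mean difference of 0.03 ± 0.07 (95% interval −0.12 to 0.18).

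For these 3 genes every interval lies between −0.23 and 0.23. Of the other Map1lc3b probe sets, 1415928_a_at was called lower at −0.41 ± 0.08, and with quantile normalization Map1lc3b was called at −0.19 (adjusted p = 0.0487). Map1lc3a (1447883_x_at, a probe set type that can share sequence with other genes) read 10.50, 10.07, 10.33 and 10.33 in naive, 10.13, 10.05 and 9.80 in B1-8 and 10.22, 10.12 and 10.10 in V23 cells. Naive replicate 2 lay among the GC arrays; the difference was −0.24 ± 0.10 (adjusted p = 0.104), and without that array it was called (−0.32, adjusted p = 0.0399). Gabarapl1 (1416419_s_at) varied most between replicates, at 4.63, 6.91, 6.91 and 7.67 in naive, 6.86, 7.39 and 7.40 in B1-8 and 8.02, 6.87 and 5.59 in V23 cells. Its difference of 0.49 ± 0.64 has a 95% interval from −0.98 to 1.96, and its most variable probe set was called at 2.13 (adjusted p = 0.0294) with naive values averaging below log2 4.

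The cargo receptors went opposite ways. Sqstm1 (1450957_a_at) encodes p62, which links ubiquitinated cargo to LC3 and is itself degraded by autophagy. It read 10.98, 11.04, 10.98 and 11.16 in naive, 11.50, 11.60 and 11.55 in B1-8 and 11.50, 11.67 and 11.30 in V23 cells. All GC arrays were above all naive arrays and the rise was 0.48 ± 0.09 (adjusted p = 0.00221); the call ended in its most variable probe set, with the same sign (0.37, adjusted p = 0.149). Nbr1 (1448343_a_at), a receptor of related structure, read 11.60, 11.60, 11.56 and 11.48 in naive, 10.59, 10.66 and 10.85 in B1-8 and 10.45, 10.29 and 10.55 in V23 cells. The groups were separate, with a difference of −0.996 ± 0.08 (adjusted p = 2.99e-05), and the V23 arrays lay below the B1-8 arrays. Its other probe set, 1451897_a_at, was at 0.08 ± 0.09.

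Tfeb (1422566_at), the transcription factor that drives lysosome and autophagy genes when nutrients are short, read 10.33, 10.45, 10.44 and 10.38 in naive, 9.93, 9.48 and 9.97 in B1-8 and 9.91, 9.93 and 9.86 in V23 cells. Every GC array lay below every naive array, B1-8 replicate 2 farthest, and the difference was −0.55 ± 0.10 (adjusted p = 0.00263).

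The GC lines were then compared with each other, which bears on whether GC cells of higher and lower affinity for the hapten differ in these genes. No member passed the test between B1-8 and V23 (0 higher and 0 lower by limma), where 0.00581% of all genes were higher and 0.0174% lower. At an unadjusted p under 0.05, 3 of 36 were higher in B1-8 and 0 lower, beside 4.78% and 2.94% of all genes. They were Atg16l2 by 0.40 ± 0.11 (adjusted p = 0.48; 95% interval 0.15 to 0.64), Nbr1 by 0.27 ± 0.11 (adjusted p = 0.622) and Gabarapl2 by 0.20 ± 0.08 (adjusted p = 0.643). Atg16l2 read 10.15, 9.82 and 9.88 in B1-8 and 9.47, 9.58 and 9.61 in V23, against 10.04, 9.96, 10.08 and 10.06 in naive cells, so that V23 alone lay apart from naive. The lines' arrays did not overlap for 4 members higher and 1 lower in B1-8, where 7.07% and 6.63% of all genes were so separated. The members' median absolute difference between the lines was 0.15, beside 0.18 for all genes and 0.48 for the members between GC and naive. A miss at this threshold does not show that the lines are alike; for Ulk1, for example, the 95% interval ran from −0.40 to 0.77.

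The rest of the pathway was read from lists of other genes, which were also chosen with earlier results of these data known. Lysosome genes were mostly lower: 13 of 22 fell (59.1%) and 2 rose (9.09%) in the mean of both lines, beside 21% and 20.5% of all genes. Cln3, a lysosomal membrane protein, was at −1.41 ± 0.10, Psap, the precursor of the saposins that help to break down lipids, at −1.34 ± 0.10 and Ctss, the cathepsin that trims the invariant chain of MHC class II, at −0.93 ± 0.07 (adjusted p from 1.17e-05 to 2.27e-05). Genes of the V-ATPase, the proton pump that acidifies lysosomes, were mixed: of 15 tested, 7 rose (46.7%) and 4 fell (26.7%), with Atp6v1a, the catalytic subunit, at 0.69 ± 0.07, Atp6v1h at 0.49 ± 0.08 and the membrane subunit Atp6v0b at −0.70 ± 0.08. Only 3 V-ATPase genes rose, and 6 fell, with quantile normalization, where 23.9% of all genes rose and 18.5% fell. With the most variable probe sets, and also without naive replicates 2 and 4 together, 3 rose. Shares of all genes in those fits are not given here.

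Of 14 genes of autophagosome fusion 5 fell (35.7%) and 2 rose (14.3%), beside 21% and 20.5% of all genes. Stx17, the syntaxin of completed autophagosomes, had the smallest p, at −1.81 ± 0.10 (adjusted p = 4.32e-06), followed by Vamp7, a vesicle SNARE, at 0.63 ± 0.09 and Vps41, a subunit of the HOPS tether, at −0.37 ± 0.07. Without naive replicates 2 and 4 together 2 of the list fell (14.3%), in a fit with less power for every gene. The share of all genes in that fit is not given here. Among 23 further autophagy factors and receptors 11 fell (47.8%) and 2 rose (8.7%), led by Bcl2, which binds Beclin 1, at −3.88 ± 0.16, Ccpg1, a receptor for the endoplasmic reticulum, at −1.91 ± 0.11 and Foxo3, a transcription factor that drives autophagy genes in other tissues, at −1.67 ± 0.12. Of 30 genes of the upstream mTORC1 and AMPK pathways 9 fell (30%) and 6 rose (20%), the latter close to the 20.5% of all genes. Prkab2, a subunit of AMPK, was at −0.92 ± 0.10, the stress-induced sestrin Sesn3 at −0.66 ± 0.08 and Lamtor1, which anchors the Ragulator complex to lysosomes, at 1.26 ± 0.17.

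**Figure D3:**
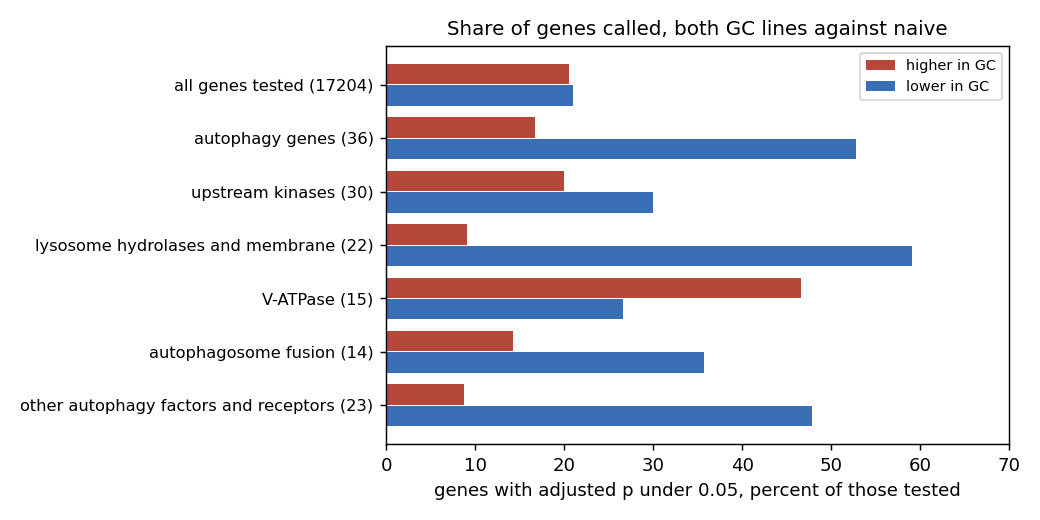
Percent of genes with an adjusted p under 0.05 (x axis) that were higher (red) or lower (blue) in the mean of both GC lines against naive, for all genes tested, the autophagy genes and the other lists, with the number tested in brackets. The blue bar is 52.8 for autophagy genes and 59.1 for lysosome genes against 21 for all genes, and only the V-ATPase list has a red bar, at 46.7, well above its blue bar.

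Probe sets of the same gene did not always agree. The 36 members have 83 probe sets in all, and 26 have more than 1. Of the 46 other probe sets that passed the filter, 29 had the sign of the probe set used and 17 the opposite sign; 14 of the 46 averaged below log2 6 in every group, and 5 of these had the opposite sign. Where both probe sets of a pair were called, 11 of 12 pairs had the same sign, Atg4b being the exception. In all, 12 of the 25 called members kept direction and call in every one of 21 alternatives: Ulk2, Atg101, Pik3r4, Uvrag, Atg2a, Atg2b, Atg4c, Atg9a, Atg10, Wdr45, Nbr1 and Tfeb. Of these, Atg101, Pik3r4, Uvrag, Atg2a, Atg9a, Atg10 and Tfeb have no other probe set, so the choice of probe set could not be varied for them. For Atg4c and Nbr1 the most variable probe set was the one used, so their other probe set entered only through the mean. Read alone, that of Nbr1 was at 0.08 ± 0.09, and that of Atg4c was at −0.16 ± 0.42 in B1-8.

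**Figure D4:**
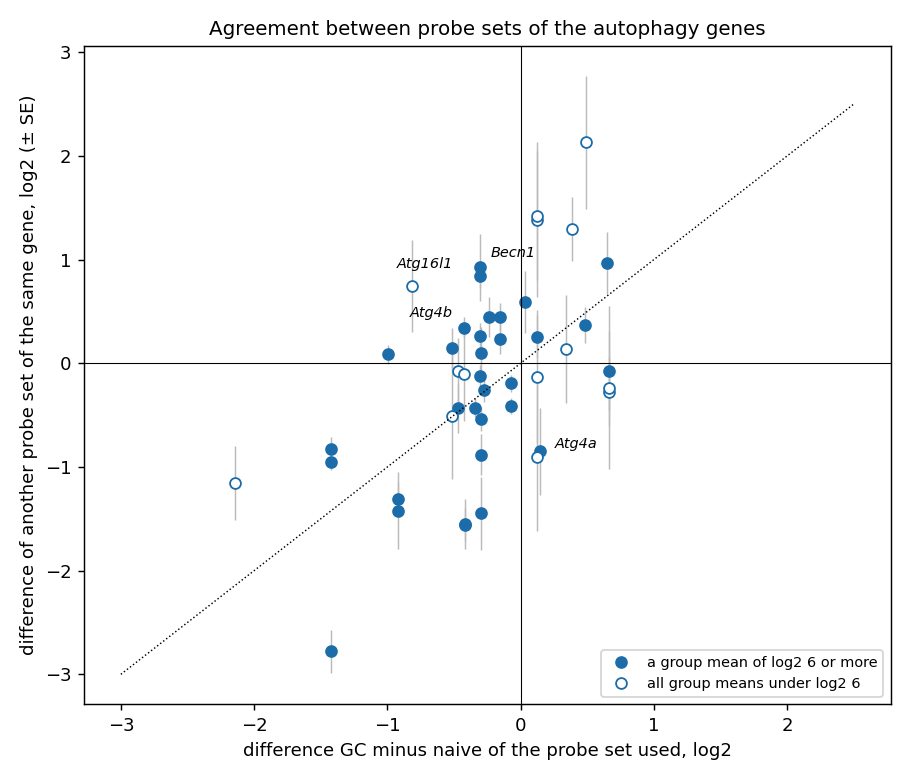
Difference GC minus naive (log2) of each of the 46 other probe sets of the autophagy genes (y axis, ± SE) against that of the probe set used for the same gene (x axis); the dotted line marks equality and open circles have all group means below log2 6. Points in the upper left and lower right, 17 in all, have opposite signs, among them those of Becn1, Atg4b, Atg16l1 and Atg4a.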

How the data were processed

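Total RNA was labelled as biotinylated cRNA and hybridised to Affymetrix mouse genome arrays, per the labels' protocols. The authors deposited 1 log2 signal per probe set and array; the submitters' processing notes name GCRMA, with no version, while on every array the mean of the unlogged values without the outer 2% at each end is 500, so the authors' scaling is not fully known. Values ran from −4.29 to 14.9 and were used as deposited. Number of arrays, rather than read depth, limits the precision.

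Of 45101 probe sets, 34958 carry 1 gene symbol in the platform annotation, 932 several and 9211 none; genes were named from the first kind. Each symbol was represented by its probe set with the highest mean, kept if above log2 4 on at least 3 arrays. A group-means model over all 10 arrays was fitted with limma 3.58.1 in R 4.3.3, with Benjamini-Hochberg adjustment over all genes and a threshold of 0.05, and it was tested on simulated data. Comparisons were both GC lines, B1-8 and V23 against naive, and B1-8 against V23. Other probe sets of the members were read from a second fit over all probe sets. The members and all gene lists were chosen with earlier results of these data known. All members are reported; those called at 1 log2 unit or more, the LC3 and GABARAP genes, Sqstm1, Ulk1, Becn1 and Tfeb are given array by array, the rest by group mean ± SD and difference (Atg9a by its ranges, and Atg16l2 array by array, chosen after its values were seen), and of each other pathway list the 3 genes with the smallest p are named. Alternatives changed the filter, the probe set rule, the scaling, a floor on low values, the variance model, array weights, the arrays fitted and the replicates; leaving out naive replicates 2 and 4 together was added after seeing the data.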

Additional observations from a re-analysis of the deposited data

Results flagged for a closer look

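In 3 of the 36 members tested, 1 naive array lay far from the other three by Dixon's test at the 95% level, which chance gives in about 1 group in 20. For Atg3, naive replicate 4 read 11.57 while the others lay between 11.79 and 11.84 (gap over range 0.833). For Wipi1, naive replicate 4 read 8.87 while the others lay between 8.58 and 8.61 (0.869). For Gabarapl2, naive replicate 2 read 11.19 and the others all read 11.15 (0.944).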

How the results depend on the processing

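For both GC lines against naive, 6 members higher and 19 lower became 5 to 7 and 15 to 19 when each array was left out in turn. Leaving out an array lowers power for every gene, and shares of all genes in such fits are not given here. Counts that moved by over 1.5 times were those of members higher in B1-8, 6 as reported and 3 to 5 with 1 array left out (3 without B1-8 replicate 1), and in V23, 5 as reported, 2 with the most variable probe set and 8 with median centring, which also left 11 lower in V23, all among the 18 as reported. With the mean of a gene's probe sets the sign turned for Becn1 (0.32), Atg4a (−0.35), Atg5 (0.18) and Map1lc3a (0.10), and with the most variable probe set for Becn1 (0.92), Atg4a (−0.85), Atg5 (0.45), Map1lc3a (0.45), Atg7 (−0.24) and Atg16l1 (0.74). Scaling turned Map1lc3b (0.027 with median centring), Gabarap (−0.091) and Gabarapl2 (−0.025, both with quantile normalization), and Gabarapl1 ran from −0.14, without naive replicate 1, to 0.87 with 1 array left out. The cause was not tested. Of the 25 called members, 13 lost the call in at least 1 alternative, and 8 uncalled members were called in at least 1, 2 of them (Becn1 and Atg5) with the opposite sign in at least 1. The labels do not say whether equal replicate numbers pair the arrays. Deviations of 9 same-number pairs correlated at −0.02 to 0.07, and those of pairs with different numbers at −0.07 to 0.08. These values show no sign of pairing, but with so few arrays they cannot exclude it. With the replicate block 5 members were higher and 15 lower for both lines, 4 and 12 in B1-8, 4 and 14 in V23, and 0 and 0 between the lines. For both lines Pik3c3 (adjusted p = 0.0564), Atg14 (0.0745), Atg3 (0.051), Atg16l2 (0.105) and Wipi2 (0.0787) were then not called. Shares of all genes called with this block, or with the most variable probe set, are not given here. Member counts in those fits are therefore not read as a result about the members.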
